A study of Mus musculus with 16 samples.

Results

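Asns, Gpt2, Got1, Glul, Aldh18a1, Pycr1, Cth, Cbs and Pck2 encode 9 enzymes that make amino acids a mammalian cell can supply for itself, or that pass carbon to that synthesis. They were taken by name from a list drawn up with earlier results of these data known, with no threshold on their values, and are 9 of the 35968 genes in the deposited tables. All 9 were among the 18944 genes that passed the filter on low counts.

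Poly(A) RNA was sequenced in 16 libraries of mouse embryonic stem cells, or ESCs, which come from the inner cell mass and can form all tissues of the embryo. The question named by the study's title is whether microRNAs are needed for pluripotent cells to enter dormancy. Pausing here means mTOR inhibition, which blocks a kinase that senses nutrients and drives growth, and the labels give day 2 for it. The 4 groups, each of 4 libraries, were Dgcr8 KO cells in mTOR inhibitor culture (paused KO), Dgcr8 KO cells in normal culture (normal KO), wild-type cells in mTOR inhibitor culture (paused WT) and wild-type cells in normal culture (normal WT). Dgcr8 binds primary microRNA transcripts and guides the nuclease Drosha to cut them, and the labels name the KO cells KO24. Neither the deleted part of the gene nor the origin of the replicates is given, so p-values measure the spread between these libraries, which may be technical. The labels name 1 KO line, so the deletion and any other difference between KO and wild-type cells cannot be told apart.

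The libraries held 88377380 to 116646028 estimated counts. Dgcr8 RNA itself lay at 173 to 187 CPM (estimated counts divided by the TMM-scaled library size) in paused KO, 246 to 256 in normal KO, 50.8 to 56.2 in paused WT and 45.3 to 49.2 in normal WT libraries, that is, higher and not lower in the libraries labelled KO. Because the deleted part is not known, that level does not check the label, and every direction below is between libraries as labelled. The Y-linked gene Ddx3y had 13 to 44 counts in the 8 KO libraries and 8326 to 10946 in the 8 WT libraries, so the lines also differ there. The 8 ESC markers summed to 7054 to 7247 CPM in paused KO, 5552 to 5742 in normal KO, 5989.8 to 6239.8 in paused WT and 4767 to 5129 in normal WT libraries, with none at 0. Fibroblast markers summed to 30.5 to 32.3, 38.7 to 43.0, 17.5 to 22.0 and 19.4 to 21.5 CPM in the same order, with 6 of 10 tested and none at 0, and primitive endoderm markers to 17.8 to 21.4, 13.7 to 16.8, 30.4 to 46.8 and 30.3 to 46.4 CPM. Trophectoderm markers summed to 85.5 to 89.7, 44.5 to 46.6, 53.3 to 67.9 and 72.9 to 85.5 CPM. The sums hide opposite changes. In normal KO over WT the log2 fold change was 1.39 for Thy1 and 1.84 for Pdgfrb. It was -0.35 for Col1a1, -1.42 for Col1a2 and -1.80 for Pdgfra, and Fap was not called. When paused, it was 0.97 for Tfap2c, 0.61 for Krt18 and 0.53 for Krt8. It was -2.41 for Gata3, -2.28 for Cdx2 and -1.65 for Hand1, and Eomes and Elf5 were not called. The part of these sums in the results was not tested, and fewer cells of a type and less RNA per cell cannot be told apart in bulk RNA. Libraries 1 and 2 stood apart from 3 and 4 in every group but paused KO, most widely in normal WT. The SD of the log2 difference over genes was 0.126 to 0.157 across that split and 0.096 to 0.103 within it in normal KO, 0.123 to 0.136 and 0.066 to 0.083 in paused WT, and 0.216 to 0.272 and 0.074 to 0.12 in normal WT. In paused KO it was 0.086 to 0.138 across and 0.114 to 0.117 within.

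Nonessential amino acid synthesis draws its carbon from glycolysis and the citric acid cycle and its nitrogen from glutamate and glutamine. When amino acids run short, or when the endoplasmic reticulum or mitochondria are stressed, the translation of the transcription factor ATF4 rises, and ATF4 binds composite elements in the promoters of many of these enzymes together with C/EBP family partners. Signalling through mTOR complex 1 also raises ATF4 output in growing cells. Mouse ESCs proliferate fast and are known for a high use of glutamine and for a need of threonine breakdown.

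Stretches of promoter around 2 motifs are shown as a description. The choice of genes used no promoter sequence, but these genes are commonly described as amino acid response genes. The count of the composite core is therefore not independent of that choice. RefSeq promoters (GRCm38.p6, 250 bases before to 50 after the annotated start, 300 in all) were found for 8 of the 9 genes, and Cth had no entry. The core of the C/EBP-ATF composite element, TGATGNAA read on both strands, occurred in 4 of the 8, those of Asns, Pck2, Pycr1 and Got1, and in 3.97% of all 32851 promoters of that length. The E-box CACGTG, which Myc family factors can bind, occurred in 2 of the 8, those of Cbs and Aldh18a1, and in 7.15% of all promoters. None of the 8 held both motifs. In the windows below capitals mark the match and each line runs 5′ to 3′ on the strand of the gene.
Asns, chr6:7693210-7693269, minus strand: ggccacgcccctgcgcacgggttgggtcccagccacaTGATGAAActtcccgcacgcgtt
Pck2, chr14:55540137-55540196, plus strand: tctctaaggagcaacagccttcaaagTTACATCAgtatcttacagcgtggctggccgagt
Pycr1, chr11:120643818-120643877, minus strand: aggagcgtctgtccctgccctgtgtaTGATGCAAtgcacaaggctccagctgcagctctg
Got1, chr19:43524674-43524733, minus strand: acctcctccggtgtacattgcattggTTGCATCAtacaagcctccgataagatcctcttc
Cbs, chr17:31637396-31637455, minus strand: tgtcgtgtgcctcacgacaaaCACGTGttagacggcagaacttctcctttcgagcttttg
Aldh18a1, chr19:40588489-40588548, minus strand: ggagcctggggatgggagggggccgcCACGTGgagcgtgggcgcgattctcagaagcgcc
The Asns match lies 23 to 16 bases before the start, the Pck2 and Pycr1 matches 103 to 96 bases and the Got1 match 102 to 95 bases before it. These starts are those of RefSeq. The GENCODE M21 genes of Asns, Pycr1 and Cbs begin further upstream, so that the Asns match lies inside the GENCODE gene. A match is a description of letters and not a bound site. Of the 4 genes with the composite core, 3 rose in KO over WT in both cultures and Got1 did not, and of the 4 promoters without it, those of Gpt2 and Aldh18a1 belong to genes that rose in both cultures too.

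The genes with their identifiers and places in GENCODE M21 (GRCm38) are Asns (ENSMUSG00000029752.12, chromosome 6, 7675169 to 7693254), Gpt2 (ENSMUSG00000031700.11, chromosome 8, 85492576 to 85527560) and Pck2 (ENSMUSG00000040618.7, chromosome 14, 55540266 to 55551242). Cth (ENSMUSG00000028179.12) lies on chromosome 3 from 157894248 to 157925077, Cbs (ENSMUSG00000024039.15) on chromosome 17 from 31608894 to 31637238, and Pycr1 (ENSMUSG00000025140.15) on chromosome 11 from 120635712 to 120643769. Aldh18a1 (ENSMUSG00000025007.13) and Got1 (ENSMUSG00000025190.13) are both on chromosome 19, from 40550257 to 40588463 and from 43499752 to 43524605. Glul (ENSMUSG00000026473.15) is on chromosome 1 from 153899944 to 153909723. Log2 fold changes carry their SE, and adjusted p-values come from edgeR's quasi-likelihood F test with Benjamini-Hochberg adjustment over all 18944 genes. "Rose" and "fell" mean an adjusted p under 0.05.

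Most of these enzymes had more RNA in KO than in WT cells. In normal culture 7 of the 9 rose in KO over WT and none fell, where 34.1% of all genes rose and 68.2% changed in either direction. In paused culture 6 rose, against 30.8% of all genes, and Got1 fell, against 34.5%, with 65.4% of all genes changed in either direction. The median log2 fold change of the 9 was 1.21 in normal and 1.44 in paused culture, and that of all genes was -0.03 in both. In each culture the libraries of the genotypes did not overlap for the 7 genes called, and neither did those of 63.4% of all genes when paused and 60.5% in normal culture.

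Pausing of KO cells changed 4 of the 9, where 67.2% of all genes changed. It raised Asns (34.4% of all genes rose) and lowered Pck2, Cbs and Got1 (32.8% fell). In WT cells pausing changed 7, where 60.7% of all genes changed. It lowered 5, Pck2, Gpt2, Aldh18a1, Pycr1 and Got1, against 27.5% of all genes, and raised Cbs and Glul, against 33.3%. The median log2 fold change of the 9 was -0.08 in KO and -0.31 in WT cells, beside 0.02 and 0.04 for all genes. Paused and normal libraries did not overlap for 4 of the 9 in KO cells, nor for 64.0% of all genes, and for 6 of the 9 in WT cells, nor for 54.0% of all genes. The difference between the responses, KO response minus WT response, passed for 7 of the 9, where 41.9% of all genes passed. It was positive for Asns, Gpt2, Pck2, Pycr1 and Aldh18a1, against 17.4% of all genes, and negative for Cbs and Got1, against 24.5%. These comparisons share groups and are not independent of each other.

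**Figure D1:**
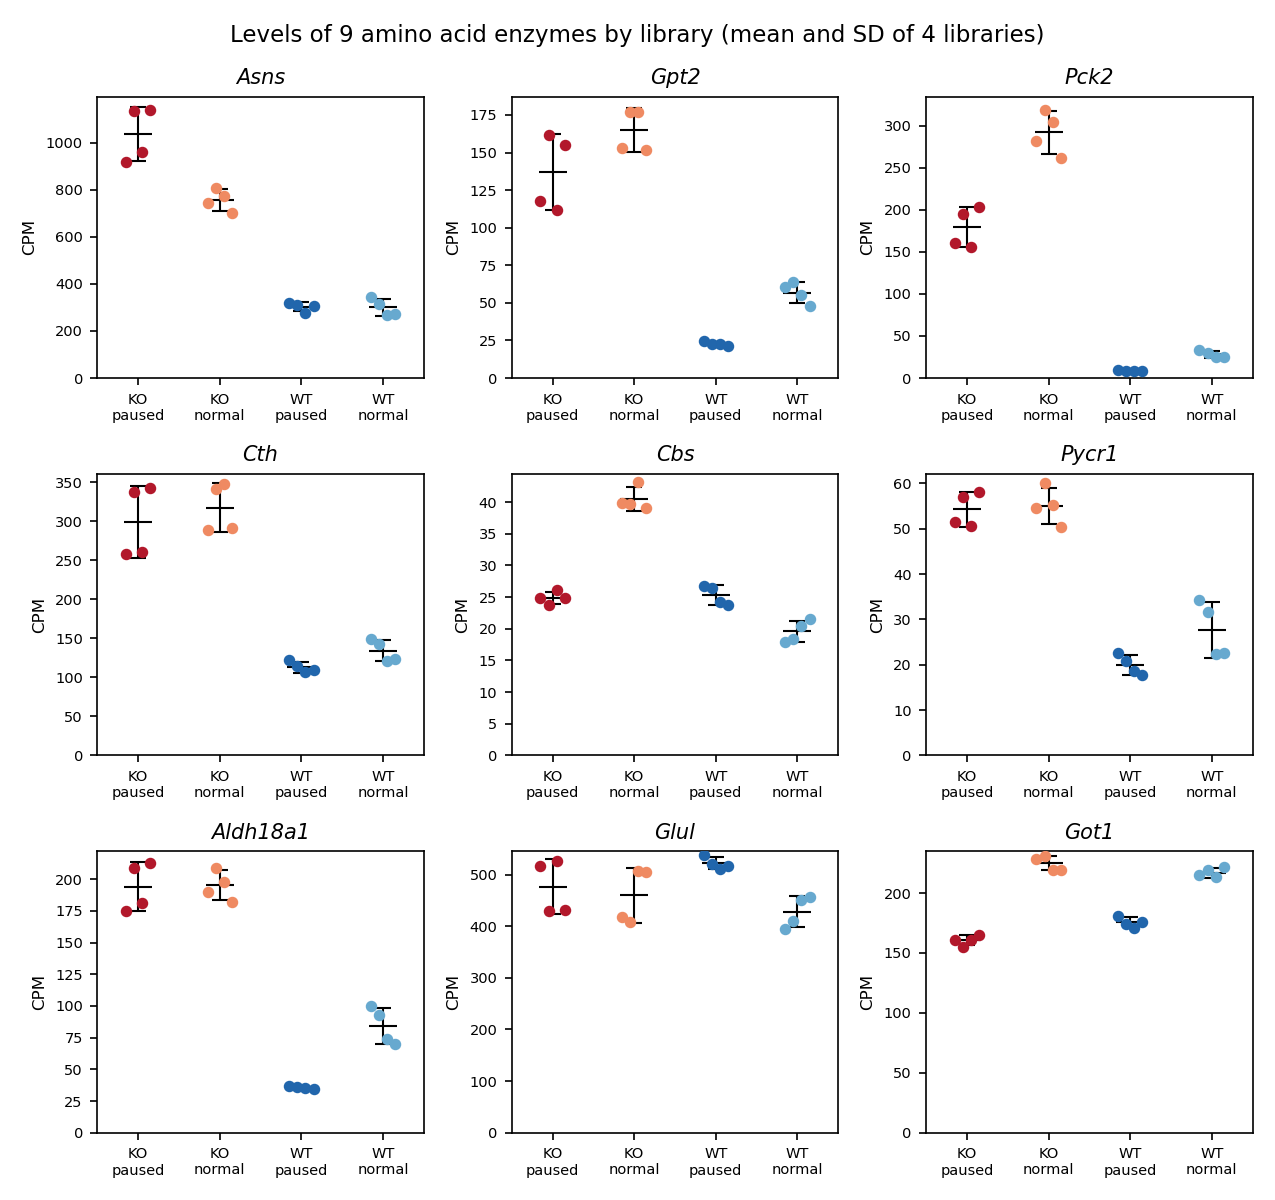
CPM (y axis, from 0) of the 9 enzymes in each of 4 libraries of paused KO, normal KO, paused WT and normal WT cells, with the mean and SD of the group in black. Asns lies at 917 CPM or above in all paused KO libraries and at 344 or below in all WT libraries, while the Glul libraries of the genotypes overlap in both cultures and Got1 follows culture.

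Asns, which makes asparagine from aspartate with glutamine as the nitrogen donor, had 917, 1133, 961 and 1137 CPM in paused KO and 742, 808, 772 and 699 CPM in normal KO libraries. The paused WT libraries had 319, 310.4, 276 and 306 CPM and the normal WT libraries 344, 314, 269 and 271 CPM. All 8 KO libraries lay above all 8 WT libraries, and the paused KO group lay above the normal KO group without overlap. KO exceeded WT by 1.78 ± 0.09 on the log2 scale when paused (adjusted p = 3.4e-11, 3.43-fold) and by 1.33 ± 0.09 in normal culture (adjusted p = 7.6e-10, 2.52-fold). Pausing raised Asns by 0.46 ± 0.09 in KO cells (adjusted p = 0.00017) and gave 0.01 ± 0.09 in WT cells (adjusted p = 0.9), a difference of 0.44 ± 0.12 (adjusted p = 0.0075). It was the only one of the 9 that rose with pausing in KO cells.

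Gpt2, the mitochondrial alanine aminotransferase, had 118, 162, 112 and 155 CPM in paused KO and 153, 177, 177 and 152 CPM in normal KO libraries. In WT it had 24.5, 22.9, 22.8 and 21.6 CPM when paused and 60.6, 63.6, 55.3 and 48.2 CPM in normal culture. The WT groups are far apart, whereas the KO groups overlap because paused KO libraries 2 and 4 reach the normal KO range and libraries 1 and 3 do not. Pausing lowered Gpt2 by 1.31 ± 0.12 in WT cells, a log2 fold change of -1.31 (adjusted p = 1.4e-07). In KO cells the log2 fold change was -0.26 ± 0.11 and missed the threshold (adjusted p = 0.052), while RLE scaling (-0.27, adjusted p = 0.047) and DESeq2 (-0.27, adjusted p = 0.023) put it past. A replicate block also put it just past (-0.27, adjusted p = 0.05 after rounding). The responses differed by 1.05 ± 0.16 (adjusted p = 0.00014), and without libraries 1 and 2 of every group by 0.94 (adjusted p = 0.069). Within libraries 1 and 2 that difference was 1.15 (adjusted p = 0.021). KO exceeded WT 5.97-fold when paused (log2 fold change 2.58 ± 0.12, adjusted p = 7.5e-11) and 2.89-fold in normal culture (1.53 ± 0.12, adjusted p = 1.4e-08). Gpt, the cytosolic alanine aminotransferase, had 3.91 to 4.52 CPM in paused KO, 3.93 to 4.99 in normal KO, 3.61 to 4.39 in paused WT and 4.45 to 4.87 in normal WT libraries. It fell with pausing in WT cells (-0.29 ± 0.09, adjusted p = 0.01), and the log2 fold change was -0.11 ± 0.09 in KO cells (adjusted p = 0.3).

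Got1, the cytosolic aspartate aminotransferase of the malate-aspartate shuttle, followed culture rather than genotype. Its libraries had 161, 155, 161 and 165 CPM in paused KO, 228, 231, 219 and 219 in normal KO, 181, 174, 171 and 176 in paused WT and 215, 219, 213 and 222 in normal WT. Every paused library lay below every normal one. Pausing gave a log2 fold change of -0.48 ± 0.03 in KO (adjusted p = 1.3e-10) and -0.31 ± 0.03 in WT cells (adjusted p = 7e-08), and the difference between them was -0.18 ± 0.04 (adjusted p = 0.0033). That difference was -0.09 (adjusted p = 0.15) without libraries 1 and 2 of every group, and -0.25 (adjusted p = 0.004) within them. KO over WT was -0.13 ± 0.03 when paused (adjusted p = 0.0013) and 0.05 ± 0.03 in normal culture (adjusted p = 0.17). The mitochondrial isozyme Got2 fell with pausing too, by 0.92 ± 0.04 in KO (adjusted p = 3e-13) and by 0.64 ± 0.04 in WT cells (adjusted p = 4e-11), and averaged 189.5 ± 9.77 CPM in paused KO, 358 ± 7.18 in normal KO, 209 ± 6.19 in paused WT and 326 ± 7.34 in normal WT libraries (SD, n = 4 each).

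Glul, glutamine synthetase, which joins ammonia to glutamate, differed between the genotypes in neither culture beyond the test's threshold. It had 517, 430.2, 527 and 431 CPM in paused KO and 418, 409, 507 and 505 CPM in normal KO libraries. In WT it had 538, 521, 511 and 516 CPM when paused and 394, 410.1, 450.1 and 456 CPM in normal culture. Pausing raised it in WT cells by 0.29 ± 0.08 (adjusted p = 0.0059), which within libraries 1 and 2 was 0.40 (adjusted p = 0.00042) and within libraries 3 and 4 was 0.17 (adjusted p = 0.11). The KO response was 0.05 ± 0.08 (adjusted p = 0.6), at 0.19 within libraries 1 and 2 (adjusted p = 0.032) and -0.08 within libraries 3 and 4 (adjusted p = 0.46). Its difference from WT of -0.24 ± 0.12 did not pass (adjusted p = 0.11). KO over WT was -0.13 ± 0.08 when paused (adjusted p = 0.17) and 0.10 ± 0.08 in normal culture (adjusted p = 0.27). A processed pseudogene, Glns-ps1, matches Glul over 1126 bases at 96.8% identity and took 3.03 to 14.1 counts per library, and another copy, matching over 1122 bases at 93.0%, took 94 to 929, against 37712 to 55632 for Glul.

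Proline is made from glutamate in mitochondria, first by the synthase encoded by Aldh18a1 and last by the reductase Pycr1, with the related reductase Pycr3 acting in the cytosol. Aldh18a1 had 175, 209, 181 and 213 CPM in paused KO and 189.6, 209, 198 and 182 CPM in normal KO libraries. Paused WT libraries had 36.7, 36.1, 35.6 and 34.4 CPM and normal WT libraries 99.7, 93.2, 73.9 and 70.0 CPM. The KO groups overlap almost wholly, with a fold of 0.998 between them (adjusted p = 0.99), and all WT libraries lie below them. In WT cells Aldh18a1 fell by 1.24 ± 0.10 with pausing (adjusted p = 2e-08), at -1.40 within libraries 1 and 2 and -1.05 within libraries 3 and 4. The responses differed by 1.23 ± 0.14 (adjusted p = 4.5e-06), the largest such difference among the 9 in size. KO exceeded WT 5.44-fold when paused (2.44 ± 0.10, adjusted p = 7.9e-12) and 2.31-fold in normal culture (1.21 ± 0.10, adjusted p = 1.7e-08).

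Pycr1 had 51.4, 57.0, 50.5 and 58.1 CPM in paused KO, 54.5, 60.0, 55.2 and 50.3 in normal KO, 22.5, 20.9, 18.6 and 17.8 in paused WT and 34.3, 31.7, 22.4 and 22.5 in normal WT libraries. Genotypes separate without overlap, but normal WT libraries 3 and 4 touch the paused WT range. KO exceeded WT by 1.44 ± 0.13 when paused (adjusted p = 5.7e-08) and by 0.99 ± 0.12 in normal culture (adjusted p = 3.3e-06). In WT cells pausing gave -0.48 ± 0.13 (adjusted p = 0.0039), which was -0.60 within libraries 1 and 2 and -0.31 within libraries 3 and 4. In KO cells it gave -0.02 ± 0.12 (adjusted p = 0.9). The difference of 0.46 ± 0.18 was marginal (adjusted p = 0.048) and was no longer called in 11 of 16 fits that each left out 1 library, where adjusted p ranged from 0.0095 to 0.1.

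The cytosolic reductase moved differently. Pycr3 averaged 20.8 ± 0.501 CPM in paused KO, 42.2 ± 1.18 in normal KO, 25.0 ± 1.96 in paused WT and 44.2 ± 6.80 in normal WT libraries (SD, n = 4 each). Pycr3 fell with pausing in both genotypes, by 1.02 ± 0.08 in KO (adjusted p = 3.5e-09) and by 0.82 ± 0.08 in WT cells (adjusted p = 7.2e-08). KO over WT was -0.27 ± 0.08 when paused (adjusted p = 0.0077) and -0.07 ± 0.08 in normal culture (adjusted p = 0.46).

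**Figure D2:**
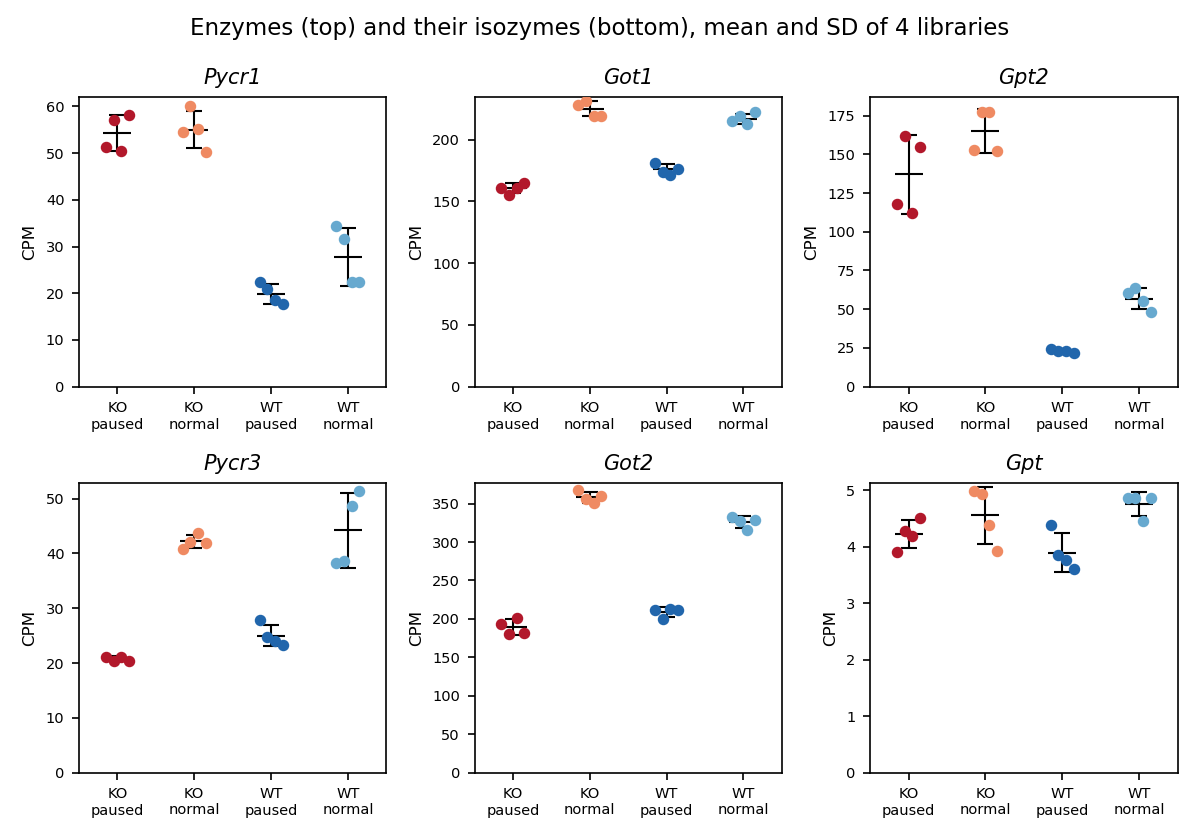
CPM (y axis, from 0) of Pycr1, Got1 and Gpt2 beside their isozymes Pycr3, Got2 and Gpt in 4 libraries each of paused KO, normal KO, paused WT and normal WT cells, with group mean and SD. Pycr1 averages 54.3 CPM in paused KO and 55.0 CPM in normal KO libraries, while Pycr3 averages 20.8 and 42.2 CPM there.

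Transsulfuration moves sulfur from homocysteine to cysteine, with Cbs forming cystathionine and Cth cleaving it to cysteine. Cth had 258, 337, 261 and 342 CPM in paused KO and 289, 341, 347 and 291 CPM in normal KO libraries. It had 122, 115, 107 and 109 CPM in paused WT and 149, 142, 121 and 124 CPM in normal WT libraries. Genotype separated the libraries in both cultures, and culture did not. KO exceeded WT by 1.40 ± 0.10 when paused (adjusted p = 8.1e-09) and by 1.24 ± 0.10 in normal culture (adjusted p = 2.6e-08). The response to pausing was -0.08 ± 0.10 in KO (adjusted p = 0.48) and -0.24 ± 0.10 in WT cells (adjusted p = 0.051), where RLE scaling (-0.27, adjusted p = 0.03), DESeq2 (-0.27, adjusted p = 0.013) and a fit of only the 2 groups compared (-0.29, adjusted p = 0.0058) put it past the threshold. The difference between the responses was 0.16 ± 0.14 (adjusted p = 0.4).

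Cbs behaved unlike the rest. It had 24.9, 23.8, 26.1 and 24.9 CPM in paused KO, 39.9, 39.7, 43.2 and 39.1 in normal KO, 26.8, 26.5, 24.3 and 23.7 in paused WT and 17.9, 18.4, 20.4 and 21.6 in normal WT libraries. The normal KO group lies highest, normal WT lowest, and the paused groups meet between them. Pausing lowered Cbs by 0.70 ± 0.06 in KO cells (adjusted p = 5.6e-09) and raised it by 0.37 ± 0.06 in WT cells (adjusted p = 2.4e-05), so the responses differed by -1.07 ± 0.08 (adjusted p = 3e-08). The WT rise was 0.56 within libraries 1 and 2 and 0.19 within libraries 3 and 4, past the threshold in both. KO exceeded WT by 1.05 ± 0.06 in normal culture (adjusted p = 2.2e-11), and the log2 fold change was -0.02 ± 0.06 when paused (adjusted p = 0.75). The paused value was -0.13 within libraries 1 and 2 (adjusted p = 0.033) and 0.09 within libraries 3 and 4 (adjusted p = 0.15). Stretches of Cbs transcripts of 244 to 421 bases match Sin3b, Rdh16 and Vmn1r218 at 90.4% to 91.0% identity. When the counts of these genes were added to Cbs, the response to pausing became 0.45 in KO cells, the difference of the responses 0.24 and KO over WT when paused 0.46. Sin3b alone holds more counts than Cbs in every library, so those sums follow mainly Sin3b.

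Pck2, the mitochondrial enzyme that turns oxaloacetate into phosphoenolpyruvate, differed most between the genotypes. It had 161, 195, 156 and 203 CPM in paused KO and 282, 319, 304 and 261 CPM in normal KO libraries. It had 9.84, 8.62, 8.41 and 8.88 CPM in paused WT and 32.8, 30.0, 25.2 and 24.6 CPM in normal WT libraries. No group overlaps another. KO exceeded WT 20.0-fold when paused (log2 fold change 4.32 ± 0.12, adjusted p = 9e-14) and 10.3-fold in normal culture (3.37 ± 0.11, adjusted p = 4.9e-13). Pausing lowered Pck2 in both genotypes, by 0.70 ± 0.10 in KO (adjusted p = 1.4e-05) and by 1.66 ± 0.11 in WT cells (adjusted p = 2.7e-09). The responses differed by 0.95 ± 0.15 (adjusted p = 0.00012), and without libraries 1 and 2 of every group by 0.89 (adjusted p = 0.05 after rounding, not called). Within libraries 1 and 2 that difference was 1.01 (adjusted p = 0.0041). The cytosolic isozyme Pck1, a gluconeogenic enzyme of liver and kidney, averaged 0.109 CPM in paused KO, 0.130 in normal KO, 0.176 in paused WT and 0.142 in normal WT libraries.

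The surroundings of Pck2 on chromosome 14 were higher in KO cells too. Of 35 tested genes within 1 Mb whose mean log2 CPM was 3 or more, all 35 rose in KO over WT in both cultures. Their log2 fold changes ran from 0.32 to 2.08 with a median of 0.95 when paused, highest for Nynrin, and from 0.19 to 2.18 with a median of 1.04 in normal culture, highest for Nfatc4. Pck2 itself, at 4.32 and 3.37, lay above all of them. With pausing the same 35 genes had a median of 0.03 in KO and 0.10 in WT cells. The part of this regional difference in the Pck2 result was not tested. Around Gpt2, in contrast, 4 of 29 neighbours rose and 14 fell when paused, and 7 rose and 12 fell in normal culture. Around Asns 1 of 3 rose when paused and 2 of 3 in normal culture, with medians of -0.11 and 0.19, and around Aldh18a1 2 of 8 rose when paused and 5 of 8 in normal culture, with medians of -0.26 and 0.27. Around Got1 7 of 12 rose and 2 fell when paused, and 10 rose and 2 fell in normal culture. For Glul 4 of 6 rose and 2 fell when paused, and 6 rose in normal culture. Pycr1 had 8 of 44 higher and 21 lower when paused, and 21 higher and 13 lower in normal culture. For Cbs 4 of 19 rose and 8 fell when paused, and 7 rose and 7 fell in normal culture. For Cth 2 of 4 rose and 1 fell when paused, and 1 rose and 1 fell in normal culture. Over all genes tested, at any level, 30.8% rose and 34.5% fell when paused, and 34.1% rose and 34.1% fell in normal culture.

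**Figure D3:**
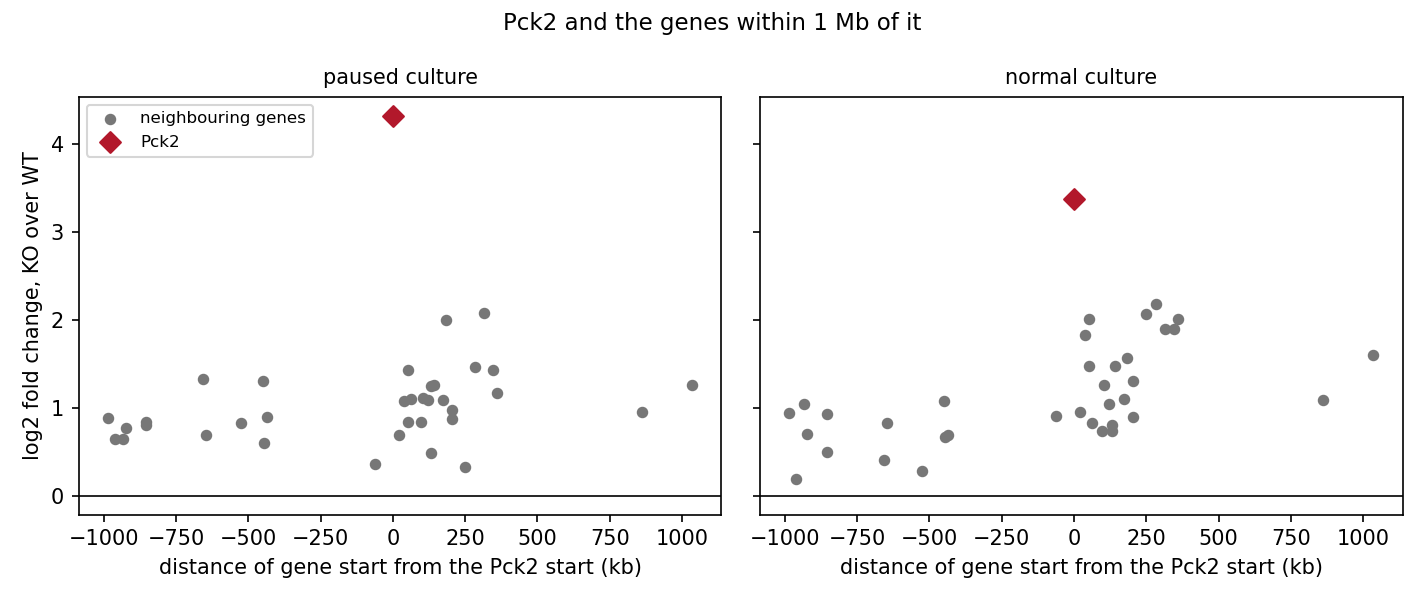
Log2 fold change of KO over WT (y axis) of Pck2 (red diamond) and its 35 neighbours (grey), against the distance of each gene's start from the start of Pck2 in kb (x axis), in paused and in normal culture. All neighbours lie above 0, at medians of 0.95 and 1.04, and Pck2 lies above them at 4.32 and 3.37.

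**Figure D4:**
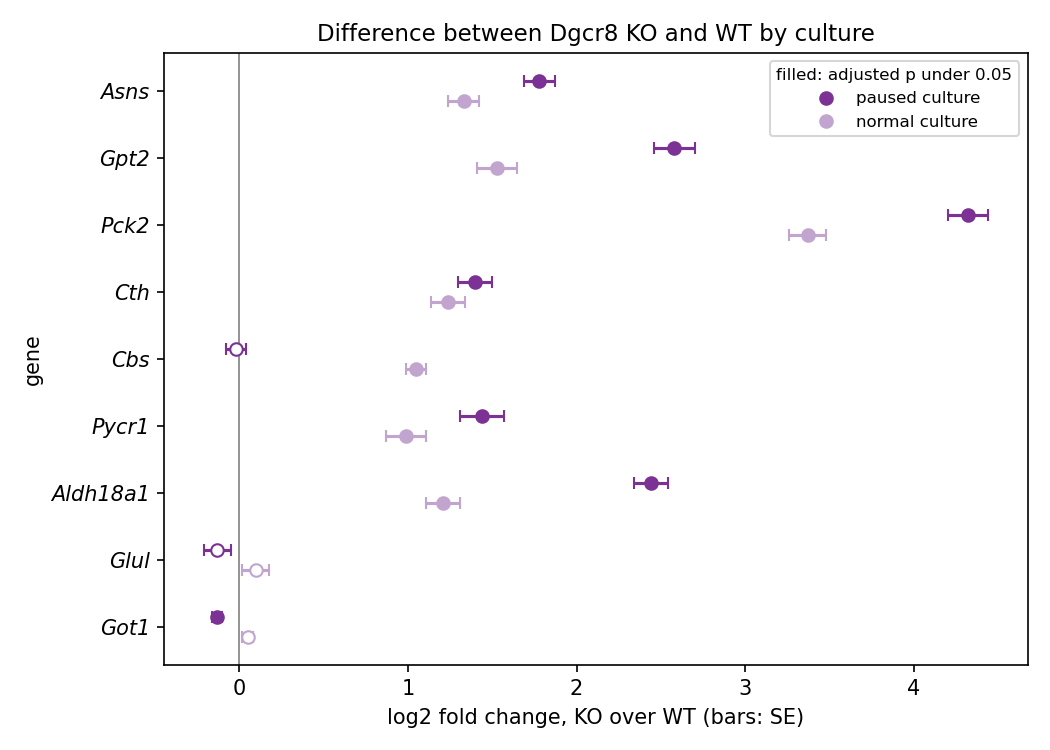
Log2 fold change of KO over WT with SE bars (x axis) for each of the 9 genes (y axis) in paused and in normal culture, filled where the adjusted p is under 0.05. Pck2 is farthest to the right at 4.32 and 3.37, while Cbs is near 0 when paused and at 1.05 in normal culture.

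**Figure D5:**
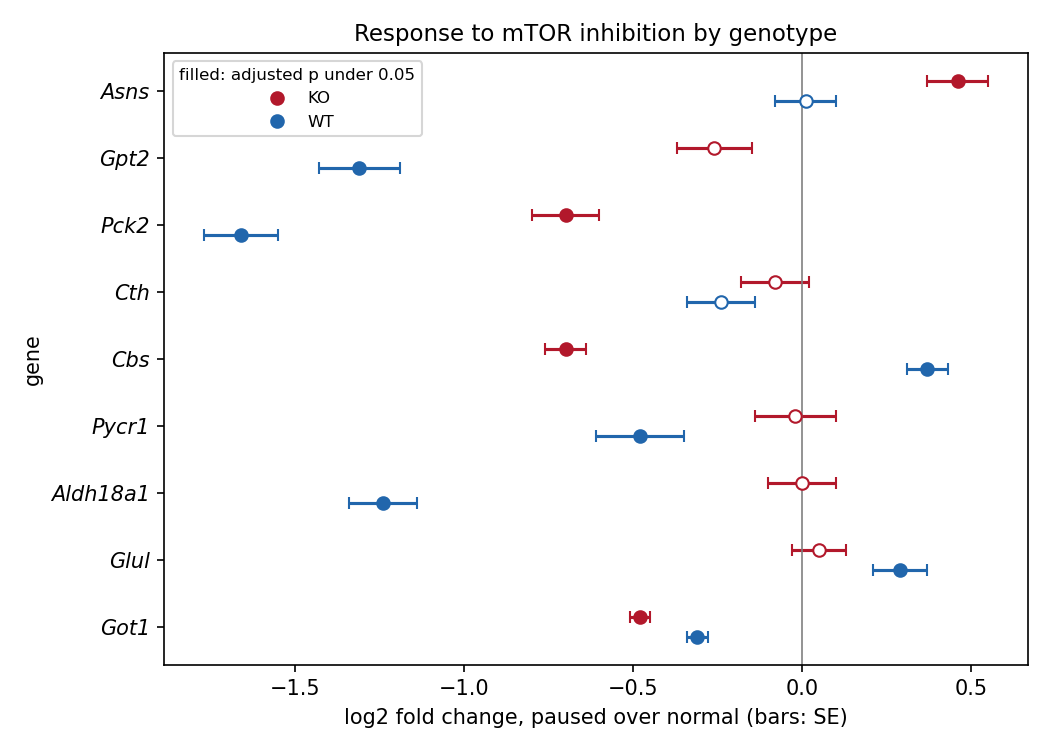
Log2 fold change of paused over normal culture with SE bars (x axis) for each of the 9 genes (y axis) in KO and WT cells, filled where the adjusted p is under 0.05. The WT point lies left of the KO point for Asns, Gpt2, Pck2, Cth, Pycr1 and Aldh18a1, and right of it for Cbs, Glul and Got1.

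Compared per transcript length, the order of the 9 differed between genotypes. Mean TPM was highest for Asns in KO cells, with 937 when paused, or 45.4% of the sum of the 9, and 583 in normal culture, or 34.4%. In WT cells Glul and Asns led, with 323 and 259 TPM when paused and 218 and 213 TPM in normal culture. The sum of the 9 was 2063 TPM in paused KO, 1695 in normal KO, 908 in paused WT and 801 in normal WT cells. TPM depends on the rest of the library, so these sums are a description and do not measure the response to pausing. CPM is relative to the library too, and each sample had 1 µg of RNA. The RNA of a gene per cell was therefore not measured in either unit. In TMM-scaled CPM, pausing lowered 5 of the 9 in WT cells, where 27.5% of all genes fell, and raised 2, where 33.3% rose. The TPM sum is nevertheless larger in paused WT. Asns, for example, averaged 303 CPM in paused and 299.7 CPM in normal WT libraries. In KO cells pausing lowered 3 of the 9, where 32.8% of all genes fell, and raised 1, where 34.4% rose. Pck2 was the fourth in normal KO, with 180.3 TPM, and last in paused WT, with 6.35 TPM. Cbs was lowest in paused KO (17.4 TPM), normal KO (25.2 TPM) and normal WT cells (10.6 TPM). Glul and Cth in paused KO, at 317 ± 31.7 and 294 ± 48.6 TPM, and Glul and Asns in normal WT, at 218 ± 12.7 and 213 ± 33.6 TPM, differed by less than their spread over libraries (SD, n = 4 each).

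Most of the enzymes were carried by 1 transcript. Asns-201 held 92.3% to 95.7% of Asns TPM over the group means, Cth-201 95.7% to 96.7% and Got1-201 92.3% to 94.7%. Pck2 was spread over 13 annotated transcripts, of which 5 annotated as retained intron held 47.4% to 53.3% of its TPM in paused KO, 44.0% to 45.4% in normal KO, 43.5% to 66.3% in paused WT and 45.5% to 47.3% in normal WT libraries. The coding transcript Pck2-208 held 8.87% in paused KO against 21.5% in normal KO cells, and 10.5% in paused WT against 23.2% in normal WT cells. Summed over coding transcripts alone, Pck2 averaged 54.5 ± 8.76 TPM in paused KO, 93.2 ± 9.31 in normal KO, 2.50 ± 0.569 in paused WT and 8.23 ± 1.16 in normal WT libraries (SD, n = 4 each), the same order as the gene. Similarly, the short coding transcript Pycr1-205 held 12.0% in paused KO against 20.2% in normal KO cells, and 14.0% in paused WT against 23.2% in normal WT cells. These shares are kallisto estimates between overlapping transcripts.

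The regulators of the amino acid response were a list of 16, all tested. In KO over WT 12 rose and 3 fell when paused and 11 rose and 1 fell in normal culture, with medians of 0.69 and 0.46. Of all genes 30.8% rose and 34.5% fell when paused and 34.1% rose and 34.1% fell in normal culture, with a median of -0.03 in both. With pausing 3 rose and 6 fell in KO cells and 5 rose and 10 fell in WT cells, with medians of -0.06 and -0.45, where 34.4% and 32.8% of all genes rose and fell in KO cells and 33.3% and 27.5% in WT cells. Atf4 RNA, whose protein level is set largely by translation, averaged 218 ± 32.4 CPM in paused KO, 242 ± 18.7 in normal KO, 137 ± 2.65 in paused WT and 237 ± 21.8 in normal WT libraries (SD, n = 4 each). KO over WT was 0.67 ± 0.09 when paused (adjusted p = 6.1e-06) and 0.03 ± 0.09 in normal culture (adjusted p = 0.76), where 7 of the 9 enzymes were higher. Atf3, a stress-induced factor of the same family, rose in KO over WT by 4.20 ± 0.14 when paused (adjusted p = 5.3e-14) and by 3.22 ± 0.13 in normal culture (adjusted p = 3e-13). Trib3, a pseudokinase induced by ATF4 that feeds back on it, rose by 4.00 ± 0.13 (adjusted p = 1e-12) and by 2.11 ± 0.12 (adjusted p = 3.1e-10). Ddit3, the stress factor CHOP, rose by 1.31 ± 0.12 when paused (adjusted p = 1.5e-08), and in normal culture both genotypes averaged 7.26 CPM. Myc was lower in KO, by 1.53 ± 0.15 when paused (adjusted p = 3.7e-07) and by 0.40 ± 0.14 in normal culture (adjusted p = 0.025).

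Paused KO libraries 2 and 4 lay above libraries 1 and 3 for Asns, Gpt2, Pck2, Cth, Pycr1 and Aldh18a1 alike, and for Atf4, at 246 and 246 against 184 and 197 CPM. Glul ran the other way, at 430.2 and 431 against 517 and 527 CPM. The labels name no batch that matches these pairs, and library 1 and library 2 are the shallowest and the deepest of the group at 88377380 and 116646028 counts.

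Beyond the 9, 53 other enzymes of the same pathways were listed and 48 were tested. In KO over WT 17 rose and 21 fell when paused (median -0.12) and 25 rose and 12 fell in normal culture (median 0.13), where 30.8% and 34.5% of all genes rose and fell when paused and 34.1% and 34.1% in normal culture. With pausing 12 rose and 26 fell in KO cells (median -0.21) and 11 rose and 20 fell in WT cells (median -0.12), and the difference of the responses was positive for 5 and negative for 19 (median -0.17), where 17.4% and 24.5% of all genes were (median -0.03). Ass1, which makes argininosuccinate from aspartate and citrulline, was among the higher ones, with 0.83 ± 0.08 when paused (adjusted p = 1.3e-07) and 1.02 ± 0.08 in normal culture (adjusted p = 8e-09). Aspg, an asparaginase, was higher in KO by 1.03 ± 0.10 when paused (adjusted p = 4.5e-08) and by 1.54 ± 0.10 in normal culture (adjusted p = 2.7e-10).

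By group of enzymes, the 6 of glutamate and glutamine had 3 higher and 2 lower in KO when paused and 5 higher and 1 lower in normal culture. Beside this and the counts that follow, 30.8% of all genes rose and 34.5% fell when paused. In normal culture 34.1% rose and 34.1% fell. Of 8 tested enzymes of aspartate, asparagine and alanine 3 rose and 2 fell when paused and 4 rose and 2 fell in normal culture. Among 10 of proline, ornithine and arginine 4 rose and 4 fell when paused and 6 rose and 2 fell in normal culture. For the methionine cycle, cysteine and glutathione the 15 tested gave 4 higher and 8 lower when paused and 5 higher and 6 lower in normal culture. Mtrr, which reactivates methionine synthase, fell by 1.02 ± 0.04 in normal KO (adjusted p = 3.8e-14), and Csad, an enzyme of taurine synthesis, fell by 1.20 ± 0.05 in paused KO (adjusted p = 2.7e-13). Of 9 enzymes and carriers of phosphoenolpyruvate, pyruvate and the malate-aspartate shuttle 3 rose and 5 fell when paused and 5 rose and 1 fell in normal culture, with the aspartate-glutamate carrier Slc25a12 at -1.11 ± 0.09 (adjusted p = 9.7e-09) and -0.68 ± 0.09 (adjusted p = 2.7e-06).

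The genes whose level followed each enzyme most closely over the 16 libraries were ranked by the Pearson correlation of log2 CPM among 9160 genes. Libraries fall into 4 groups, so a high value mostly says that the group means run in parallel. Gpt2 was followed by Herpud1, Trib3 and Slc3a2 (each 0.997), and Aldh18a1 by Slc6a9 (0.997), Herpud1 (0.997) and Chac1 (0.996). Pck2 was followed by Eprs (0.997), a transfer RNA synthetase with which a stretch of its transcripts matches over 201 bases, Slc7a5 (0.996) and Fkbp10 (0.996). Asns was nearest to Pde4dip (0.995), Cth to Arid5a (0.995), Pycr1 to Abhd4 (0.992), Got1 to Exosc9 (0.989) and Cbs to Acsl1 (0.982). Glul had the weakest nearest gene, Dusp27, at 0.874.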

How the data were processed

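Poly(A) RNA of 16 libraries was measured, 4 in each of 4 groups taken from the labels. The labels give 800000 cells and 1 µg of RNA per sample and a NEBNext poly(A) module. Per the submitters' processing notes the reads were quantified with kallisto on GRCm38, and its version is not given in the sources used here. Per the file headers, the authors' deposited values are estimated counts (expected counts) and TPM per transcript. The remaining deposited columns, length and effective length in bases, are entered as a signal and were used only to scale counts in 1 alternative, per the file headers. Of 118489 transcripts 116728 matched GENCODE M21, and the other 1761 (0.656% to 0.712% of counts) were dropped. Sums per gene were rounded, and library totals ran from 88377380 to 116646028 counts.

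Genes passing filterByExpr (minimum count 10) entered 1 robust quasi-likelihood fit over all groups (edgeR 4.0.16, R 4.3.3), with TMM factors of 0.933 to 1.07 and a biological coefficient of variation of 0.0852. Each of 5 contrasts was tested two-sided at an adjusted p of 0.05. Each SE was derived from the log2 fold change and its F statistic. The fit was tested on simulated data. Alternatives were RLE factors, no filter, length-scaled counts, a replicate block, a term for or restriction to libraries 1 and 2 or 3 and 4, only the 2 groups compared, DESeq2 1.42.0, leaving out each library, and adding genes that match one of the 9 over at least 200 bases at 90% identity (blastn 2.17.0). Adding processed pseudogenes alone was chosen after seeing the data. The 9 genes and the lists were chosen with earlier results of these data known. Named beside the 9 are isozymes, the 2 genes of each list and contrast with the largest called change (not all are described), Dgcr8, Atf4, Ddit3, Trib3 and Myc, and up to 3 genes nearest to each by correlation. The genes around Pck2 were singled out after their values were seen. Of Ddit3, which has more than 1 identifier in GENCODE M21, the one with more counts was used. Intervals and SEs cover the spread between libraries only. Some results are not reported here.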

Additional observations from a re-analysis of the deposited data

Results flagged for a closer look

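The responses of KO and WT cells to pausing were compared by the interaction term of the same edgeR fit, and 7 of the 9 enzymes differed, where 41.9% of all genes did. As KO response minus WT response on the log2 scale, the difference was 1.23 for Aldh18a1, 1.05 for Gpt2, 0.95 for Pck2, 0.46 for Pycr1 and 0.44 for Asns. It was -1.07 for Cbs and -0.18 for Got1. The first 4 of these genes had log2 fold changes between 0 and -0.70 in KO cells and between -0.48 and -1.66 in WT cells, whereas Asns rose in KO cells alone by the test. Only for Cbs did both responses pass in opposite directions. A smallest and a largest library were also compared with the rest of their group for each of the 36 combinations of enzyme and group, and none stood out by Dixon's test.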

How the results depend on the processing

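Over 27 alternative settings, 267 of 268 counts of called genes kept within 1.5 times their value, and 1140 of 1206 results of single enzymes kept direction and side of the threshold. With libraries 3 and 4 only, the difference of the responses was called for 4 of the 9 (3 positive, 1 negative) in place of 7. It was called for 7134 of all genes in place of 7936, and Gpt2 (0.94), Pck2 (0.89) and Got1 (-0.09) missed the threshold. With libraries 1 and 2 only, it was called for 7 of the 9 (5 positive, 2 negative) and for 8079 of all genes. Both fits hold equally few samples. The difference was -1.27 for Cbs and -0.25 for Got1 with libraries 1 and 2, and -0.88 for Cbs with libraries 3 and 4. Signs changed for values near 0. Pausing gave Asns in WT cells -0.01 with RLE scaling, -0.01 with DESeq2, -0.03 with only the 2 groups compared and -0.06 with libraries 1 and 2. In KO cells it gave Aldh18a1 0.05 with length-scaled counts and 0.06 with libraries 3 and 4, Pycr1 0.04 and Glul -0.08 with libraries 3 and 4. KO over WT when paused was 0.09 for Cbs with libraries 3 and 4 (adjusted p = 0.15). With libraries 1 and 2 it was -0.13 and past the threshold (adjusted p = 0.033). Adding matching genes turned Cbs to 0.45 (KO response), 0.24 (difference of responses) and 0.46 (KO over WT when paused). Adding only processed pseudogenes could not change the Cbs counts, because its matches Sin3b, Rdh16 and Vmn1r218 are protein-coding genes. Leaving out 1 library gave -0.06 to 0.09 for Asns in WT, -0.06 to 0.03 for Pycr1, -0.05 to 0.05 for Aldh18a1 and 0.0 to 0.1 for Glul in KO cells, and -0.05 to 0.01 for Cbs between paused groups. Calls near the threshold moved with these fits. The Cth response in WT cells was called in 9 of 16, the Gpt2 response in KO cells in 5 of 16 and the Pycr1 difference of responses in 5 of 16, and without a filter the last was 0.44 (adjusted p = 0.11). The labels do not say that replicate numbers mark shared cultures. Over 24 same-number pairs the correlation of deviations ran from -0.23 to 0.42, with 12 above 0.1 and so short of the bar for pairing, every pair above 0.1, and 19 of 48 checks matched a library best with its own number. Deviations were partly shared by libraries 1 and 2 and by 3 and 4 across groups (normal KO library 2 had 0.24 and 0.25 with normal WT 1 and 2, and -0.24 and -0.28 with 3 and 4). A term for that split changed none of the 5 counts of called enzymes. With the replicate block the Gpt2 response in KO cells was -0.27 and just past the threshold (adjusted p = 0.05 after rounding). No count of called genes moved by over 1.5 times with that block. The causes of these shifts were not tested. Depth limits Pck1, at a mean of 0.109 to 0.176 CPM.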

Other observations

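Among the neighbours of Got1 within 1 Mb, 7 of 12 rose in KO over WT when paused and 10 of 12 in normal culture, with Scd1 highest at 1.81 and 1.91 on the log2 scale, although Got1 itself was at -0.13 and 0.05. Around Glul 4 of 6 rose when paused and 6 of 6 in normal culture, and Glul itself was at -0.13 and 0.10. Over all genes tested, at any level, 30.8% rose when paused and 34.1% in normal culture. These neighbours were looked at after the values were seen, and their part in the results was not tested.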
